A study of Mus musculus with 4 samples.

Results

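The genes described here are 10 known as markers of meningeal fibroblasts, connective tissue cells of the sheets that wrap the brain. They are 6 solute carriers, Slc6a13, Slc6a20a, Slc22a6, Slc22a8, Slc13a4 and Slc47a1, the extracellular proteins Mgp and Islr, and the forkhead transcription factors Foxc1 and Foxd1. They were matched by symbol, and all 10 were found among the 19388 genes with values. Messenger RNA was sequenced from the hippocampus of C57BL/6 mice, an inbred laboratory strain, in 4 samples. The 2 ascorbate samples came from mice treated with (+)-sodium L-ascorbate, the sodium salt of vitamin C, and the 2 PBS samples from mice that received phosphate-buffered saline. The series description gives a treatment of 30 days, and the series title speaks of middle-aged mice and of ascorbic acid, CD8+ T cells and cognition. No allele, transgene or age in weeks is labelled, both groups share the strain and the tissue, and samples within a group carry the numbers 1 and 2, whose meaning is not labelled. Separate animals are not stated within a group, so the p-values measure only the spread between these samples, which may be technical. Values are FPKM, read fragments scaled for transcript length and for the library's total, so levels of different genes can be compared per length. Depth is unknown, and with it the counting error behind each value.

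Meningeal fibroblasts form the pia, the arachnoid and the inner layer of the dura, and related fibroblasts line the larger vessels that enter the brain. Cells of the arachnoid separate the cerebrospinal fluid from the blood of the dura and carry transporters that move organic anions, organic cations, amino acids and sulfate across this border. Several of the same carriers also work in the choroid plexus epithelium, which makes cerebrospinal fluid, and in the tubules of the kidney. The 10 genes are therefore not specific to a single cell type. In bulk tissue, fewer cells of a type and less RNA per cell cannot be told apart.

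Summed markers of tissue next to the hippocampus differed between samples. Markers of thalamus, a list of 10 genes, summed to 425 and 65.2 FPKM in ascorbate samples 1 and 2, against 399 and 59.4 FPKM in PBS samples 1 and 2. They thus followed the sample number and not the treatment. All 20 markers of choroid plexus epithelium were lower in both ascorbate samples, with sums of 237 and 53.1 FPKM in ascorbate samples 1 and 2, against 9776 and 9018 FPKM in the PBS samples. Most of the sum in the PBS samples was Ttr, and without it the sums were 149 and 52.1 FPKM in the ascorbate samples, against 1624 and 1762 FPKM in the PBS samples. Of these 20 markers, 4 (Otx2, Calml4, Tmem72 and Wfdc2) were listed at 0 in ascorbate sample 2 and none in the other samples. Markers of hippocampal neurons, 12 genes such as Neurod6 and C1ql2, had overlapping groups in every case. Their sums were 139 and 314 FPKM in the ascorbate samples, against 107 and 281 FPKM in the PBS samples, higher in both samples numbered 2. The part of the choroid plexus or of the thalamus in the differences below was not tested.

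The promoters of 4 carriers are shown: the adjacent organic anion transporter genes Slc22a8 and Slc22a6, the amino acid carrier Slc6a20a, and Slc13a4, the carrier with the largest difference. Each runs from 250 bases before to 50 bases after an annotated start, 5′ to 3′ on the gene's strand, from RefSeq (GRCm38.p6). The Slc22a8 window lies wholly inside the gene span given below, so its start is not the outermost one of the gene. The same holds for the Islr promoter counted below, and for the Slc6a13 promoters other than the one at chr6:121300038-121300337. Capitals mark GGGCGG, the letters of a GC box, and GTTAAT, the letters at an end of the recognition sequence of the HNF1 factors, on either strand. In mouse and human kidney, HNF1 factors are known to drive Slc22a6 and Slc22a8.
Slc22a8 (chr19:8592932-8593231, plus strand): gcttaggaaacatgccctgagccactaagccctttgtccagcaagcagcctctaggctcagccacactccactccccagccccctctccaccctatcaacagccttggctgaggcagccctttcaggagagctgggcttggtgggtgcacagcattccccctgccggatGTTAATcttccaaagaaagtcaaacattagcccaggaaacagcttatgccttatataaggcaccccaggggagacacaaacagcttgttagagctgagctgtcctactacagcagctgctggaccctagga
Slc22a6 (chr19:8617746-8618045, plus strand): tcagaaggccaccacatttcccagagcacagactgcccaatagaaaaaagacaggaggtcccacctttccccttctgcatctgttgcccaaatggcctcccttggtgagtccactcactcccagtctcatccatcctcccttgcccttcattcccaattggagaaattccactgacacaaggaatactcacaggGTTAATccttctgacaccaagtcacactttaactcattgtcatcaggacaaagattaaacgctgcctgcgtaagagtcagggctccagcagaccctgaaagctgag
Slc6a20a (chr9:123678783-123679082, minus strand): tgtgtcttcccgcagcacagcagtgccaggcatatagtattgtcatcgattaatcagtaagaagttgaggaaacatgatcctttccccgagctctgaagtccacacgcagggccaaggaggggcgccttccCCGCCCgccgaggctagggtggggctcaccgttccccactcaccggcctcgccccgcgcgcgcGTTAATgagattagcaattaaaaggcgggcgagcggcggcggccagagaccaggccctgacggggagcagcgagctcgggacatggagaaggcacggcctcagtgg
Slc13a4 (chr6:35308077-35308376, minus strand): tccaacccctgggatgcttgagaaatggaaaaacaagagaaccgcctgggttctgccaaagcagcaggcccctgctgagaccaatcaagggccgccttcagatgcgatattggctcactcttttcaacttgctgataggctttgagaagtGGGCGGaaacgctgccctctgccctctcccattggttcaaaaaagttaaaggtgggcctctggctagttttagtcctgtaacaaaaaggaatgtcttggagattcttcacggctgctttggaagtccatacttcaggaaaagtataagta
RefSeq promoters of this kind were found for 8 of the 10 genes, and those of Mgp and Slc47a1 were not used here. Slc6a13 has 3, which makes 10 promoters in all. The letters GTTAAT, picked after the promoters had been read, stood 81 bases before the start in Slc22a8 and 56 bases before it in both Slc22a6 and Slc6a20a. They were in 4 of the 10 promoters, counting a Slc6a13 promoter that lies wholly inside its gene span, and in 7.10% of all 32851 promoters. The promoters shown hold most of these matches, so they do not stand for all 10. GGGCGG was in 5 of the 10, against 35.7% of all. The exact letters GTAAACA of a forkhead core and TATAAA of a TATA box were in none of the 10, against 3.65% and 13.6% of all. No match overlapped another. Variants of these letters were not searched, and the Slc22a8 promoter holds the similar letters TATATAAG, so absence of a TATA box is not shown. The promoters of the organic anion transporters and Islr held few CpG dinucleotides, with 1 in Slc22a8, 2 in Slc22a6 and 1 in Islr, against a median of 7 in all promoters. Those of Slc6a20a and Foxc1 held 25 and 32. CpG content thus differed widely among the promoters of the 10 genes.

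For all 10 genes, the higher ascorbate sample lay below the lower PBS sample. This held for 14.6% of all 19388 genes with values, and for 15.1% of the 13469 genes with a PBS mean of at least 1 FPKM, a level that each of the 10 reached. By group mean the differences ran from 2.06-fold lower for Foxc1 to 14.4-fold lower for Slc13a4. With group as the only term, no gene passed an adjusted p of 0.05 in limma-trend over 13372 tested genes (0.0%). So none of the 7 members that passed the filter of a mean of 1 FPKM did either. These calls changed when the replicate number was added as a block, as given in the last section with the limits of that fit. Without this filter, which Slc47a1, Foxc1 and Foxd1 missed, 10 of 10 were under an unadjusted threshold of 0.05, as were 3.52% of 18516 genes in the direction of lower values, and their adjusted p ran from 0.217 to 1.0. The members were chosen with earlier results of these data known, so these counts are descriptions.

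**Figure D1:**
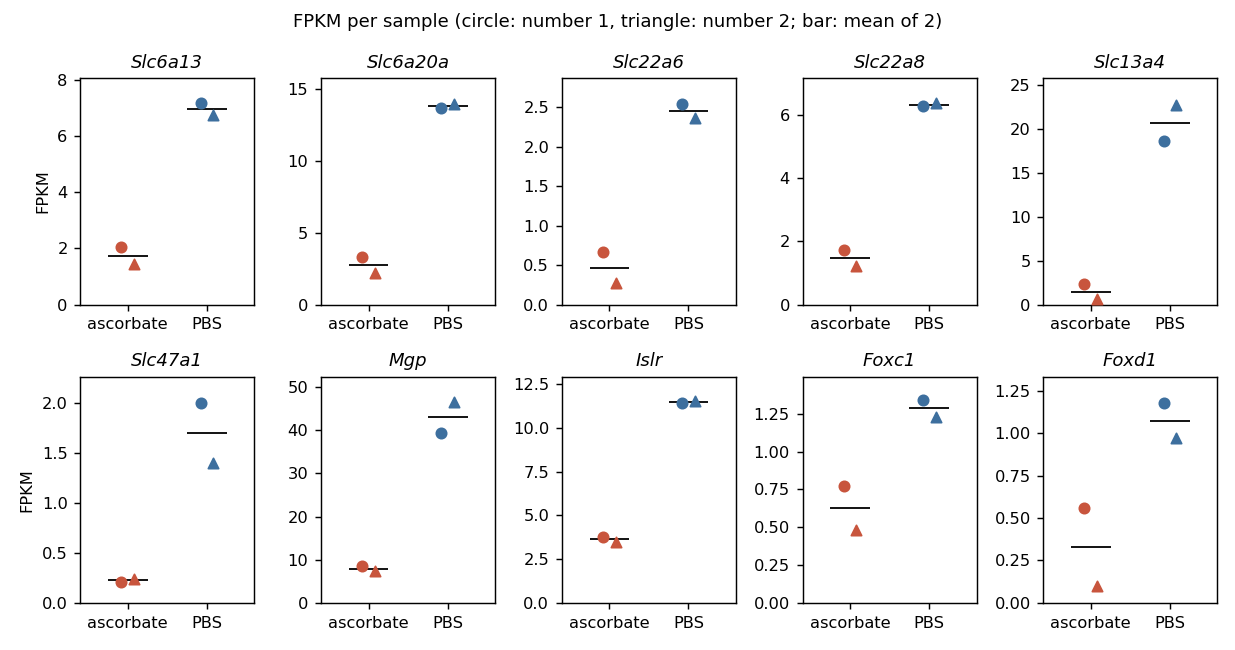
FPKM of each of the 10 genes by sample, with ascorbate left and PBS right in each panel, circles for samples numbered 1, triangles for samples numbered 2 and a bar for the mean of 2 samples. Every panel starts at 0, and in all 10 both ascorbate points lie below both PBS points.

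The amino acid carriers were lower by 4-fold to 5-fold. Slc6a13 (gene ID 14412, chromosome 6, 121300288 to 121337721, GRCm38) encodes GAT2, which takes up GABA and taurine at the brain's borders. It was at 2.05 and 1.43 FPKM in ascorbate samples 1 and 2, against 7.16 and 6.73 FPKM in PBS samples 1 and 2. The values within each group lay close together and far from those of the other group. The means were 1.74 ± 0.438 FPKM with ascorbate and 6.95 ± 0.304 FPKM with PBS (SD, n = 2 each), 3.99-fold lower. On the log2(FPKM + 1) scale, on which all log2 differences here are given as ascorbate minus PBS, the difference was -1.54 (SE 0.19, 95% interval -2.06 to -1.03, adjusted p = 0.232 in limma-trend).

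Slc6a20a (gene ID 102680, chromosome 9, 123636907 to 123678832), a carrier of proline and other imino acids, was at 3.32 and 2.23 FPKM in the ascorbate samples, against 13.7 and 14.0 FPKM in the PBS samples. It was the more abundant of the 2 in every sample, with 1.62 and 1.56 times the FPKM of Slc6a13 in the ascorbate samples and 1.91 and 2.08 times in the PBS samples. Its mean was 2.77 ± 0.771 FPKM with ascorbate and 13.8 ± 0.212 FPKM with PBS (SD, n = 2 each), 4.99-fold lower, with a log2 difference of -1.99 (SE 0.20, 95% interval -2.52 to -1.46, adjusted p = 0.163 in limma-trend). Its transcripts are near-identical to stretches of those of Slc6a20b, the gene beside it, and of Gm17120 (95% identity or more over at least 200 bases), so its value is uncertain to that extent. Slc6a20b was listed at 0.04 and 0.0 FPKM in the ascorbate samples and at 0.04 FPKM in both PBS samples.

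The organic anion transporters, which exchange anionic drugs, toxins and transmitter breakdown products for dicarboxylates, showed 4-fold to 5-fold lower values too. Slc22a8 (OAT3, gene ID 19879, chromosome 19, 8591254 to 8611835) was at 1.72 and 1.23 FPKM in the ascorbate samples, against 6.28 and 6.37 FPKM in the PBS samples. The PBS values all but coincided, and the ascorbate values lay well below them. The means were 1.48 ± 0.346 FPKM with ascorbate and 6.33 ± 0.0636 FPKM with PBS (SD, n = 2 each), 4.29-fold lower, with a log2 difference of -1.57 (SE 0.18, 95% interval -2.07 to -1.08, adjusted p = 0.203 in limma-trend). Slc22a6 (OAT1, gene ID 18399, chromosome 19, 8617996 to 8628299) lies 6160 bases further along the chromosome. It was at 0.66 and 0.27 FPKM in the ascorbate samples, against 2.54 and 2.36 FPKM in the PBS samples. It was 5.27-fold lower by mean. With ascorbate sample 2 left out the fold was 3.71, and with ascorbate sample 1 left out it was 9.07, so the size rests on which ascorbate sample is used. Its log2 difference was -1.25 (SE 0.23, 95% interval -1.88 to -0.62, adjusted p = 0.607 in limma-trend).

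Within a sample, some of these carriers kept close proportions. Slc6a13 over Slc22a8 was 1.19 and 1.16 in the ascorbate samples, against 1.14 and 1.06 in the PBS samples. Slc22a8 over Slc22a6 was 2.61 and 4.56 in the ascorbate samples, against 2.47 and 2.70 in the PBS samples, so ascorbate sample 2 stood apart in this ratio. Both genes were near 1 FPKM or below there, and no error of such a ratio can be given.

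Slc13a4 (gene ID 243755, chromosome 6, 35267953 to 35308126) encodes a sodium-dependent sulfate transporter, known in placenta and at the borders of the brain. It was at 2.29 and 0.59 FPKM in ascorbate samples 1 and 2, against 18.7 and 22.8 FPKM in PBS samples 1 and 2. This was the widest gap of the 10 genes by fold of the means and within number 2, at 38.6-fold lower, whereas within number 1 Slc47a1 was 9.52-fold lower and Slc13a4 8.17-fold lower. The ascorbate samples of Slc13a4 also differed from each other. The means were 1.44 ± 1.20 FPKM with ascorbate and 20.7 ± 2.87 FPKM with PBS (SD, n = 2 each), 14.4-fold lower. With ascorbate sample 2 left out the fold was 9.06, and with ascorbate sample 1 left out it was 35.2. The log2 difference was -3.24 (SE 0.39, 95% interval -4.30 to -2.18, adjusted p = 0.230 in limma-trend), the 19th lowest of the 13372 tested genes. Slc13a4 did not keep its proportion to Slc22a8, of which it was 1.33 and 0.480 times in the ascorbate samples and 2.98 and 3.57 times in the PBS samples. The summed choroid plexus markers of ascorbate sample 2 were likewise the lowest of the 4 samples, at 0.543% of PBS sample 1, against 2.43% in ascorbate sample 1. Without Ttr these shares were 3.21% in ascorbate sample 2 and 9.19% in ascorbate sample 1. Whether they share a source with Slc13a4 was not tested.

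Slc47a1 (gene ID 67473, chromosome 11, 61343400 to 61378842) encodes MATE1, which exports organic cations in exchange for protons. It was at 0.21 and 0.24 FPKM in the ascorbate samples, against 2.0 and 1.4 FPKM in the PBS samples. It was the 1 gene of the 10 that was not lower in ascorbate sample 2 than in ascorbate sample 1. The means were 0.225 ± 0.0212 FPKM with ascorbate and 1.70 ± 0.424 FPKM with PBS (SD, n = 2 each), 7.56-fold lower. Its mean over all samples of 0.963 FPKM is under the filter. Without the filter its log2 difference was -1.13 (SE 0.15, 95% interval -1.55 to -0.71, adjusted p = 0.326 in limma-trend), small beside its fold because the added 1 FPKM compresses low values.

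Both extracellular proteins were lower in both ascorbate samples, and Mgp had the smallest adjusted p of the 7 tested members. Mgp (gene ID 17313, chromosome 6, 136872435 to 136875823), the vitamin K-dependent matrix Gla protein that inhibits calcification, was at 8.44 and 7.34 FPKM in the ascorbate samples, against 39.4 and 46.6 FPKM in the PBS samples. It was the most abundant of the 10 genes in all 4 samples. The means were 7.89 ± 0.778 FPKM with ascorbate and 43.0 ± 5.03 FPKM with PBS (SD, n = 2 each), 5.45-fold lower, with a log2 difference of -2.31 (SE 0.16, 95% interval -2.74 to -1.87, adjusted p = 0.116 in limma-trend). Islr (gene ID 26968, chromosome 9, 58156246 to 58159236), an immunoglobulin superfamily protein with leucine-rich repeats also called meflin and known from mesenchymal stromal cells, was at 3.79 and 3.50 FPKM in the ascorbate samples, against 11.4 and 11.6 FPKM in the PBS samples. Its values within each group were the closest together of the 10 genes relative to the gap between groups. It was 3.15-fold lower by mean, with a log2 difference of -1.43 (SE 0.14, 95% interval -1.80 to -1.05, adjusted p = 0.163 in limma-trend). Mgp over Islr was 2.23 and 2.10 in the ascorbate samples, against 3.46 and 4.03 in the PBS samples. GENCODE M21 draws Islr transcripts that share 181 identical bases with transcripts of Islr2, so reads there cannot be assigned to either.

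The transcription factors were the least abundant in the PBS samples and had the smallest log2 differences, which the added 1 FPKM compresses at such levels. By fold of the means Foxd1, at 3.26-fold lower, was beyond Islr at 3.15-fold lower. Foxc1 (gene ID 17300, chromosome 13, 31806646 to 31810635), which mouse embryos need to form the meninges, was at 0.77 and 0.48 FPKM in the ascorbate samples, against 1.34 and 1.23 FPKM in the PBS samples. It was 2.06-fold lower by mean and had a log2 difference of -0.50 (SE 0.14, 95% interval -0.89 to -0.10, adjusted p = 1.0 in limma-trend without the filter). Foxd1 (gene ID 15229, chromosome 13, 98354245 to 98356705), a forkhead factor of kidney stroma and other mesenchyme, was at 0.56 and 0.10 FPKM in the ascorbate samples, against 1.18 and 0.97 FPKM in the PBS samples. The groups did not overlap for either gene, but the distance between the ascorbate samples of Foxd1 was larger than that from ascorbate sample 1 to PBS sample 2. It was 3.26-fold lower by mean, and the fold was 1.92 with ascorbate sample 2 left out and 10.8 with ascorbate sample 1 left out. The log2 difference was -0.66 (SE 0.20, 95% interval -1.23 to -0.10, adjusted p = 1.0 in limma-trend without the filter).

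Beside these factors, 19 others listed for meninges and mesenchyme included none that passed the test in either direction among the 7 that were tested. For 9 of the 19 both ascorbate samples were below both PBS samples, against 14.6% of all genes with values. The most abundant, Zic1, was at 37.5 and 1.23 FPKM in the ascorbate samples, against 28.3 and 4.09 FPKM in the PBS samples. Zic1 thus went with the sample number, as did Zic2 at 21.0 and 1.88 FPKM in the ascorbate samples, against 15.5 and 6.37 FPKM in the PBS samples. Zic1 is also on the thalamus list. Foxc2, a close relative of Foxc1, was at 0.19 and 0.09 FPKM in the ascorbate samples, against 0.93 and 0.65 FPKM in the PBS samples.

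Compared sample by sample with the same number, every one of the 10 genes was lower with ascorbate in both numbers. The 10 genes had a median log2 difference of -1.396 in number 1, -1.575 in number 2 and -1.485 from the group means. Over all 13372 tested genes these medians were -0.016, -0.030 and -0.018. Within number 1 the differences ran from -2.58 for Slc13a4 to -0.40 for Foxc1, and within number 2 from -3.90 to -0.59 for the same genes. Of the 10, 9 were at least 2-fold lower in both numbers, Foxc1 being 1.74-fold lower in number 1. This held for 3.64% of all 19388 genes with values, and for 2.05% of the 13469 genes with a PBS mean of at least 1 FPKM, a level that all 10 reached and that 4 of them, with ascorbate means under 1 FPKM, reached only with PBS. For 9 of the 10, all but Slc47a1, the fold was larger in number 2. The difference between the numbers was not tested.

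**Figure D2:**
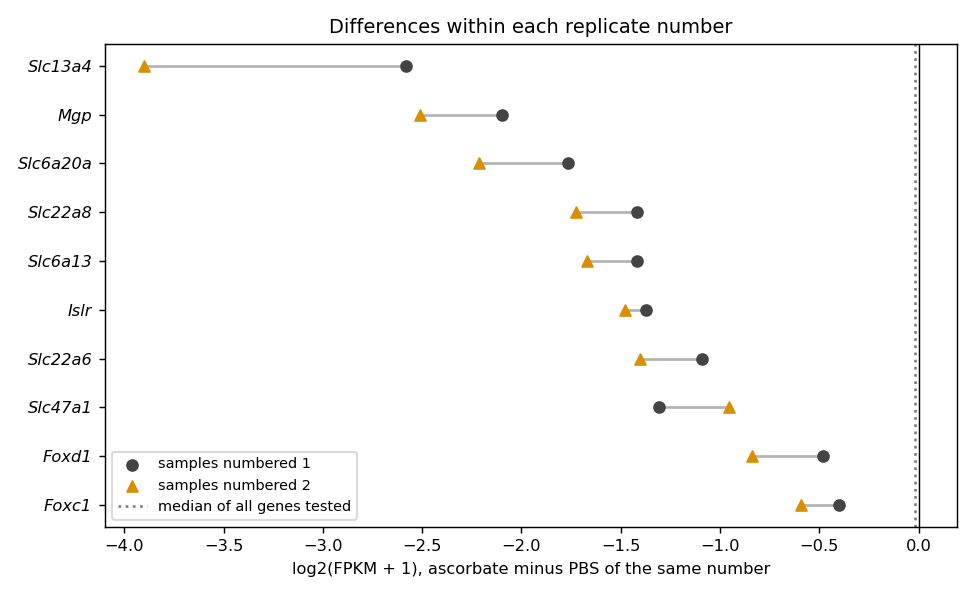
Difference in log2(FPKM + 1), ascorbate minus PBS, for each of the 10 genes between the samples numbered 1 (circles) and those numbered 2 (triangles), with a dotted line at the median of all tested genes, -0.018. All 20 points lie below 0, and Slc13a4 has the widest distance between its points, -2.58 and -3.90.

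The order of levels differed between the groups. In the PBS samples it was Mgp, Slc13a4, Slc6a20a, Islr, Slc6a13, Slc22a8, Slc22a6, Slc47a1, Foxc1 and Foxd1 from high to low, and the ranges of neighbours in this order were separate in 9 of 9 pairs. In the ascorbate samples it was Mgp, Islr, Slc6a20a, Slc6a13, Slc22a8, Slc13a4, Foxc1, Slc22a6, Foxd1 and Slc47a1. There the ranges of neighbours in the order were separate for the first 3 pairs and overlapped in the other 6. The range of Slc13a4, 0.59 to 2.29 FPKM, also overlapped those of Slc6a13 and Slc6a20a. Below Mgp and Islr the order is therefore not set by these samples. Slc13a4, in place 2 with PBS, was in place 6 by the ascorbate mean. In ascorbate sample 1 alone it was above Slc6a13, at 2.29 against 2.05 FPKM. Summed over the 6 carriers, 10.2 and 5.99 FPKM were measured in the ascorbate samples, against 50.4 and 53.6 FPKM in the PBS samples.

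Relatives of the carriers, many of which work in other cells of the brain, mostly had small differences. In the list of 26 carriers of the same families, none of the 14 tested passed in either direction, and the median log2 difference of all 26 was -0.03. Both ascorbate samples were below both PBS samples for 8 of them, against 14.6% of all genes with values. Slc6a11, the GABA transporter of astrocytes, was at 155 and 31.6 FPKM in the ascorbate samples, against 135 and 28.2 FPKM in the PBS samples. Its groups overlapped, and it followed the sample number. The taurine carrier Slc6a6 and the creatine carrier Slc6a8 had log2 differences of 0.07 and 0.08, and Slc6a15 and Slc6a17, transporters of neutral amino acids in neurons, of -0.11 and 0.21.

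Among the relatives of the organic ion carriers, Slc22a17 had a log2 difference of -0.22, Slc22a4 of -0.08, Slc22a5, the carnitine carrier, of -0.38, Slc22a15 of -0.02 and Slc22a23 of -0.01. Of the relatives of Slc13a4, the dicarboxylate carrier Slc13a3 was at 4.46 and 2.30 FPKM in the ascorbate samples, against 9.29 and 5.95 FPKM in the PBS samples, a log2 difference of -0.99 (adjusted p = 1.0, limma-trend). This was the relative with the largest difference among those at a mean of 1 FPKM or more. That mean is over all samples, so the cut leaves out relatives that reached 1 FPKM with PBS alone, such as Slc6a12, described below. The citrate carrier Slc13a5 and the sulfate carrier Slc26a2 had log2 differences of -0.21 and -0.29. Slc13a2 was listed at 0 in both PBS samples and at 0.0 and 0.09 FPKM in the ascorbate samples.

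Of 8 other carriers and pumps of the brain's borders, none passed in either direction, and the median log2 difference was -0.45. For 7 both ascorbate samples were below both PBS samples, against 14.6% of all genes with values. The thyroxine carrier Slco1c1 of vessels and choroid plexus was at 9.34 and 13.02 FPKM in the ascorbate samples, against 32.5 and 38.9 FPKM in the PBS samples, the largest log2 difference of the 8 at -1.60 (adjusted p = 0.277, limma-trend). The peptide carrier Slc15a2 was at 17.8 and 23.8 FPKM in the ascorbate samples, against 22.3 and 18.9 FPKM in the PBS samples, and overlapped. Slco1a4 had a log2 difference of -0.76 and Slc29a4, a transporter of monoamines, of -0.64.

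Genes beside the 10 on the chromosome divided by gene. Of 18 distinct nearest genes with values that are not members themselves, both ascorbate samples were below both PBS samples for 7, above them for 0, and overlapping for 11. Over all 19388 genes with values, 14.6% were lower in this way. Slc6a12, which carries betaine and GABA and starts 4852 bases from Slc6a13, was at 0.34 and 0.16 FPKM in the ascorbate samples, against 1.37 and 1.58 FPKM in the PBS samples, 5.90-fold lower. Fam180a, 4616 bases from Slc13a4, was at 0.42 and 0.40 FPKM in the ascorbate samples, against 2.08 and 2.01 FPKM in the PBS samples. Stra6, the receptor for retinol uptake that lies 2241 bases from Islr, was at 1.56 and 4.45 FPKM in the ascorbate samples, against 6.11 and 8.70 FPKM in the PBS samples. These 3 had the largest log2 differences of the 18, at -0.99, -1.11 and -1.15.

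Usp18, on the other side of Slc6a13, was also lower in both ascorbate samples, at 0.49 and 0.10 FPKM, against 0.88 and 0.60 FPKM in the PBS samples. Islr2, a neuronal relative of Islr, was at 9.08 and 21.6 FPKM in the ascorbate samples, against 6.90 and 17.3 FPKM in the PBS samples. The muscarinic receptor Chrm1 beside Slc22a6 was at 10.2 and 30.0 FPKM in the ascorbate samples, against 6.77 and 24.7 FPKM in the PBS samples. Islr2 and Chrm1 followed the sample number, and their groups overlapped. Slc47a2, a paralogue 539 bases from Slc47a1, was at 0.03 FPKM in both ascorbate samples, against 0.18 and 0.08 FPKM in the PBS samples, too low to rank. None of the 10 genes overlaps another gene of the files in RefSeq.

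**Figure D3:**
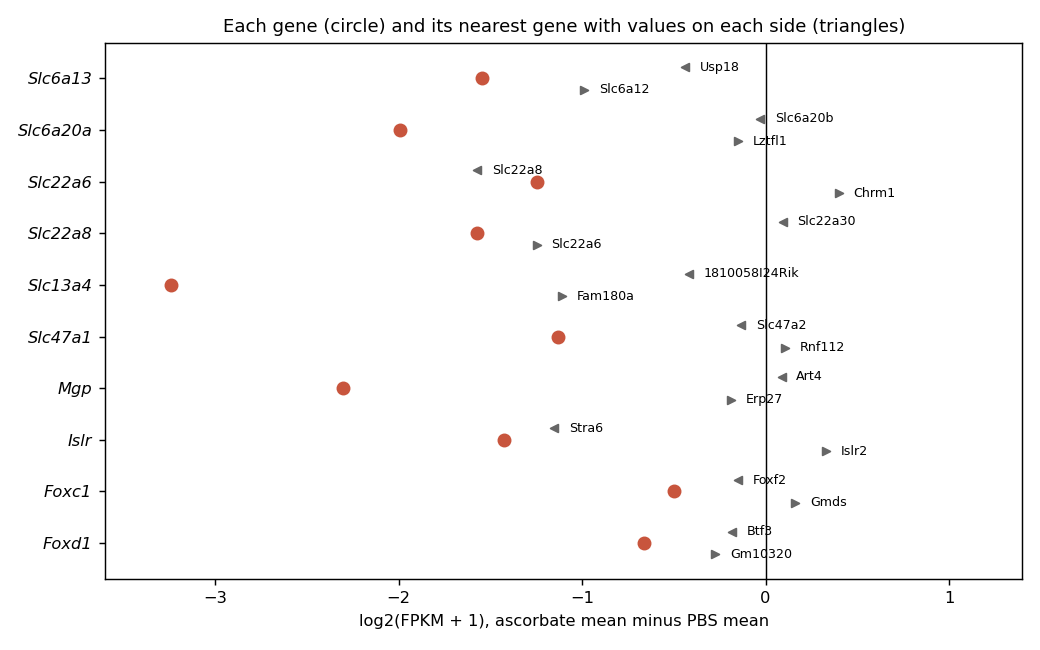
Difference in log2(FPKM + 1), ascorbate mean minus PBS mean, for each of the 10 genes (circles) and the nearest gene with values at lower (left-pointing triangles) and higher coordinates (right-pointing triangles). Slc6a12, Fam180a and Stra6 lie near -1, and most other neighbours lie close to 0.

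Most fibroblast markers outside the 10 were lower in the same samples. This list too was chosen with earlier results of these data known, so it is a description and not a check of the cell type. Of 18 listed meningeal fibroblast genes, 17 had both ascorbate values below both PBS values, against 14.6% of all genes with values. None of the 16 tested passed in limma-trend, and the median log2 difference of the list was -1.38. Their sums were 538 and 235 FPKM in the ascorbate samples, against 1767 and 1439 FPKM in the PBS samples. Most of these sums was Ptgds, which is also made outside fibroblasts, and without it they were 81.4 and 52.6 FPKM in the ascorbate samples, against 323 and 315 FPKM in the PBS samples. In the PBS samples most of this remainder again came from 2 genes, with log2 differences of -2.79 and -3.63. The sums therefore overweigh genes with larger differences than the list median. The proteoglycan Dcn was at 12.7 and 14.1 FPKM in the ascorbate samples, against 26.5 and 45.8 FPKM in the PBS samples. Defining collagens were present but low, with Col1a1 at 1.23 and 0.85 FPKM in the ascorbate samples, against 2.27 and 1.75 FPKM in the PBS samples. The listed meningeal fibroblast markers were thus detected in all 4 samples. The fibroblast and choroid plexus lists were low in the same samples, and the cell type in which the carriers were lower was not tested.

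Markers of other border cells differed from list to list, and none passed in limma-trend. Arachnoid barrier genes, of which Krt18 was listed at 0 in ascorbate sample 2, summed to 109 and 44.95 FPKM in the ascorbate samples, against 119 and 79.0 FPKM in the PBS samples. Most of this was Cldn11, which oligodendrocytes also make and whose groups overlapped. Without Cldn11 the sums were 7.57 and 5.84 FPKM in the ascorbate samples, against 22.1 and 19.6 FPKM in the PBS samples. For 5 of the 6 arachnoid barrier genes, all but Cldn11, both ascorbate values were below both PBS values. The adhesion protein Cdh1, known from arachnoid barrier cells and other epithelia, was at 0.09 FPKM in both ascorbate samples, against 0.81 and 1.38 FPKM in the PBS samples. Endothelial genes, in whose cells Slc22a8 is also known, summed to 63.4 and 59.3 FPKM in the ascorbate samples, against 73.9 and 73.1 FPKM in the PBS samples, a median log2 difference of -0.24. Of the 12 endothelial genes, 8 had both ascorbate values below both PBS values and 4 overlapped. Over all genes with values, 14.6% were lower in this way. Mural cell genes summed to 40.2 and 43.1 FPKM in the ascorbate samples, against 76.0 and 91.8 FPKM in the PBS samples, of which Vtn made up the largest portion. Without Vtn they were 18.9 and 23.6 FPKM in the ascorbate samples, against 27.8 and 47.8 FPKM in the PBS samples. Of the 10 mural cell genes, 5 had both ascorbate values below both PBS values, 4 overlapped and Kcnj8 was higher in both ascorbate samples, with a list median of -0.28. Border macrophage genes summed to 3.76 and 2.70 FPKM in the ascorbate samples, against 7.12 and 4.58 FPKM in the PBS samples. For 5 of these 6 genes both ascorbate values were below both PBS values. Ependymal genes summed to 71.1 and 4.15 FPKM in the ascorbate samples, against 70.7 and 35.9 FPKM in the PBS samples, and the groups overlapped for 7 of 8.

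**Figure D4:**
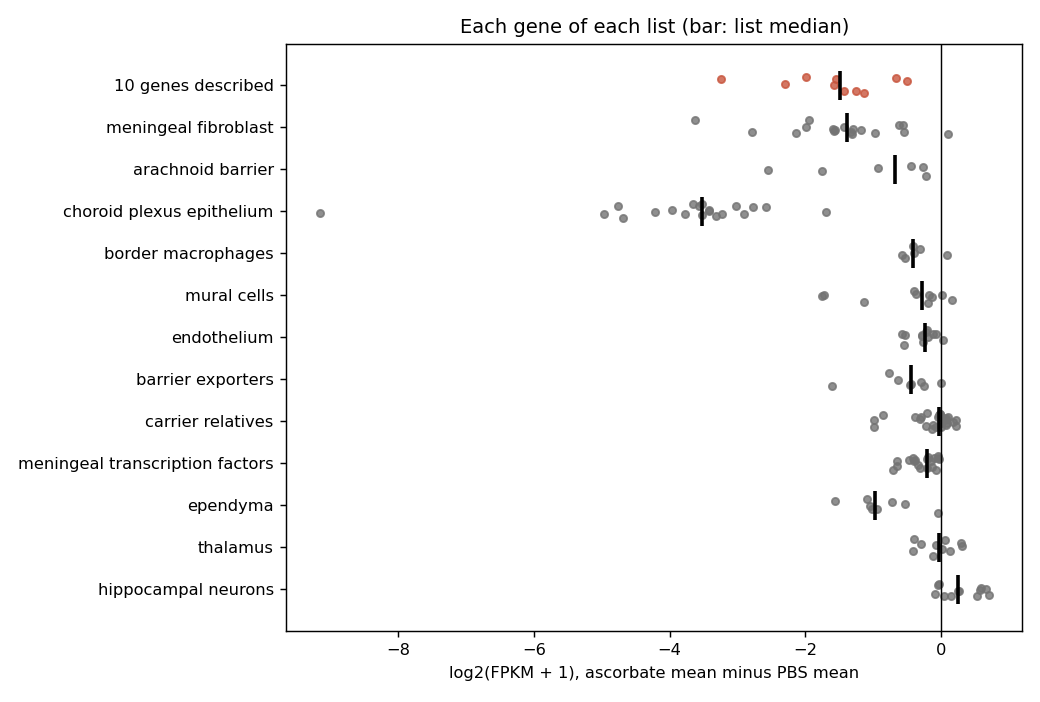
Difference in log2(FPKM + 1), ascorbate mean minus PBS mean, for every gene of each list, with the list median as a bar and the 10 genes described in the top row. The median of the 10 genes, -1.49, lies between those of choroid plexus epithelium, -3.52, and endothelium, -0.24, and beside that of the other meningeal fibroblast genes, -1.38.

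**Figure D5:**
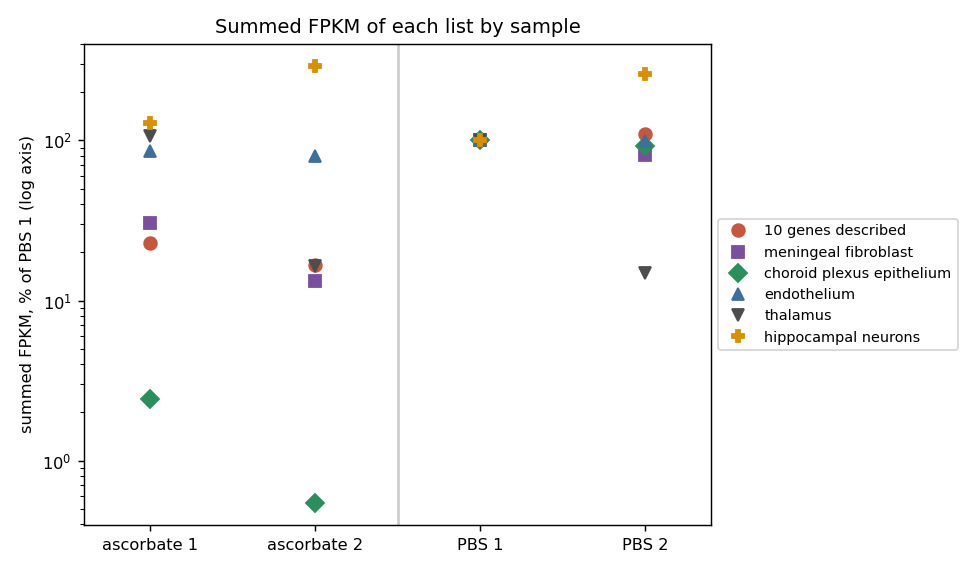
Summed FPKM of 6 lists in each sample as a percentage of PBS sample 1, on a log axis, with the ascorbate samples left. The 10 genes described stand at 22.9% and 16.8% in the ascorbate samples and 110% in PBS sample 2, choroid plexus epithelium at 2.43% and 0.543% in the ascorbate samples, endothelium at 85.9% and 80.2%, while thalamus is low in both samples numbered 2. Most of the choroid plexus sum in the PBS samples is Ttr.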

How the data were processed

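The deposited files hold FPKM for 1 library each, to 2 decimals, per the file headers, made by the authors. The submitters' processing notes name GRCm38 and, with no role or version, RSEM, Bowtie2, HISAT2 and DESeq2. The annotation release and strand setting are not given in the sources used here. Per the labels' protocols, mRNA was captured on oligo(dT) beads. FPKM divides by the library total, so an abundant transcript lowers all others.

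Gene IDs joined the files, which list 22173 genes, 2785 of them with empty cells that were left out. IDs of 19234 of the 19388 genes with values matched RefSeq GRCm38.p6, the source of positions. limma-trend (limma 3.58.1, R 4.3.3) was fitted to log2(FPKM + 1) with group as its only term. It covered the 13372 genes whose mean reached 1 FPKM, with 2 residual degrees of freedom, Benjamini-Hochberg adjustment and a threshold of 0.05. Exact permutation of 2 against 2 samples cannot go below p = 0.333 (2-sided) and was not used. The fit was tested on simulated data with independent samples and gene spreads capped at their median. That test does not show how the fit behaves at the wider spreads of these samples. Transcripts were compared with BLAST+ 2.17.0. Named genes are the 10 members, the 4 most abundant of a list or fewer, carrier relatives at 1 FPKM or more, neighbours and markers listed at 0, except 2 genes not reported here; Foxc2, Col1a1 and Cdh1 were chosen after their values were seen. Members and lists were chosen with earlier results of these data known.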

Additional observations from a re-analysis of the deposited data

How the results depend on the processing

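The fit was repeated without the filter, with a pseudocount of 0.1, with a filter of 5 FPKM, after rescaling to TPM or by median of ratios, with a replicate block, and without each sample. Log2 differences of all 10 genes stayed below 0 throughout. Without each sample, where the lone sample is assumed to vary like the other group, the log2 differences of the 10 genes ran from -3.77 to -0.37 and their median from -1.59 to -1.38. That median was -2.15 with a pseudocount of 0.1 and -1.76 after rescaling to TPM, since the added constant then weighs less. With the replicate block, 485 of the 13372 tested genes passed, 453 of them lower. All 7 tested members did, with adjusted p from 1.05e-08 to 0.00134 in limma-trend. Of these 7, Slc22a6 reached the filter's mean of 1 FPKM only through its PBS values. The block fit has 1 residual degree of freedom, so its spread is mostly the prior pooled over genes (14.4 prior degrees of freedom, against 2.33 without the block), and what the numbers stand for is not labelled. Deviations of same-numbered samples correlated at 0.770 across genes. Under the other alternatives 0 genes passed, and adjusted p of the members ran from 0.114 to 1. At values under 1 FPKM, as for Slc47a1, Foxd1 and Slc22a6 with ascorbate, unknown depth limits what the folds show.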
